A study of Mus musculus with 9 samples.

Results

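The tyrosine and dual-specificity phosphatase genes of the mouse were described across 3 kinds of B cell. Members were taken by name: every gene whose symbol is Ptpn, Ptpr or Dusp followed by its number or letter. The rule found 62 of the 22178 listed genes, of which 17 were Ptpn genes (non-receptor tyrosine phosphatases), 21 Ptpr genes (receptor tyrosine phosphatases) and 24 Dusp genes (dual-specificity phosphatases). Spleen was the source of the B2 cells, the conventional class of B cell, and their mice carry the strain label VH12B1-8/Vk4. B1 cells, a class enriched in body cavities, were taken from the peritoneal cavity, with B1-8VH12/Vk4 as strain label. The B2B1 cells shared the tissue and strain label of B1, and exchange of their antigen receptor (the B cell receptor, BCR) was started about 30 days ahead of isolation. All mice had a C57BL/6 (backcrossed) background, and each group had 3 libraries of polyadenylated RNA. Ages, sexes and treatments other than the switch are not stated. The labels do not state whether the libraries of a group are all from different mice, and p-values therefore cover only the spread among these samples. Values are TPM, each a share of the transcripts corrected for gene length, so they can be compared between genes. They keep no read counts, and the depth of the libraries is unknown.

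Tyrosine phosphorylation carries the first steps of BCR signalling, and tyrosine phosphatases set its level in both directions. CD45 and CD148 remove an inhibitory phosphate from Src family kinases, whereas SHP-1, which docks on inhibitory receptors, and the PEST phosphatases act against the activated kinases and their substrates. Downstream, MAP kinases are switched off by the MAP kinase phosphatases. These dual-specificity enzymes remove phosphate from both the threonine and the tyrosine of the activation loop, and several of their genes are themselves induced by MAP kinase activity. Atypical dual-specificity phosphatases lack the kinase-docking domain, and their substrates are more varied.

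The libraries were checked as a whole. Over the tested genes, principal component 1 (70.3% of the variance) parted B2 from both peritoneal groups and the second (13.3%) parted B2B1 from B1, while B1 library 2 stood apart from B1 libraries 1 and 3 on the third (4.12%; scores 29.4 against −10.8 and −11.5). All 8 B cell markers averaged at least 1 TPM in every group, and their sum was 19577 to 26771 TPM per library. The 5 B2 markers summed to 2789 to 3186 TPM in B2, 61.9 to 85.4 TPM in B2B1 and 147 to 185 TPM in B1, and the 7 B1 markers to 27.1 to 29.1, 1287 to 1424 and 835 to 942 TPM. Macrophage markers (11 of 12 in the table) summed to 1.91 to 2.94 TPM in B2, 72.2 to 274 TPM in B2B1 and 24.6 to 58.6 TPM in B1, with the highest sum in B2B1 library 1, where Lyz2 alone was at 181 TPM. Of the 6 macrophage markers tested, all 6 were called higher in B2B1 than in B2 and 2 in B1 than in B2. Emr1, the gene of the macrophage antigen F4/80, was at 0.272 to 0.448 TPM in B2, 39.9 to 52.0 TPM in B2B1 and 13.6 to 20.9 TPM in B1. The complement genes C1qa, C1qb and C1qc stayed at 0 to 0.422 TPM in B2, 1.43 to 11.7 TPM in B2B1 and 0.0697 to 2.25 TPM in B1, and Mrc1 reached 4.87 TPM in B2B1 and 8.60 TPM in B1. Csf1r and Cd14 were at 2.13 and 1.45 TPM in B2B1 library 1 and at 0 to 0.516 TPM in the other libraries, and Gata6 was at most 0.143 TPM in any library and listed at 0 in B2. T cell markers summed to 9.45 to 12.6, 6.32 to 9.85 and 17.3 to 20.3 TPM in B2, B2B1 and B1. Sums were at most 2.18 TPM for NK cell, 1.56 TPM for neutrophil and 0.948 TPM for stroma and mesothelium markers, 4.75 TPM for mast cell and eosinophil and 9.89 TPM for erythroid markers. Dendritic cell markers summed to 19.5 to 45.5 TPM and plasma cell markers to 83.1 to 220 TPM. B2 library 2 and B2B1 libraries 1 and 2 had Ddx3y, on the Y chromosome, at 56.9 to 75.3 TPM and Xist at 0.355 to 0.461 TPM, and the other 6 libraries had Xist at 180.4 to 298 TPM and Ddx3y at 0.109 to 0.323 TPM. By these genes B2 and B2B1 each held male and female libraries, and so drew on more than 1 mouse, while B1 held only female ones. The part of other cells, sex and these library differences in the results below was not tested beyond leaving out libraries. These were each single library, and B1 library 2 and B2B1 library 1 together.

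Of the 62 members, 36 had a mean of at least 1 TPM over the 9 libraries and were tested: 13 Ptpn, 6 Ptpr and 17 Dusp genes. No member lay close to that threshold. The lowest tested members were Dusp4 with a mean of 2.58 TPM and Ptprv with 3.48 TPM, and the highest untested ones were Ptpn13 with 0.279 TPM and Dusp9 with 0.181 TPM. Most receptor genes were among the 26 untested members, 7 of which were listed at 0 in every library (Dusp13, Dusp15, Dusp27, Ptpn20, Ptprq, Ptprr and Ptprz1). Both receptor groups built around the MAM domain (Ptprk, Ptprm, Ptprt and Ptpru) and around Ptprg, Ptprz1, Ptprr, Ptprn and Ptprn2 had no tested member.

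The summed level of the phosphatase genes was made up differently in B2 and in the peritoneal groups. All members together reached 2557 ± 7.90 TPM in B2 (mean ± SD, n = 3, here and below for TPM and shares), 2239 ± 152 TPM in B2B1 and 2376 ± 173 TPM in B1. In B2, SHP-1 (Ptpn6) and CD45 (Ptprc) made up 27.9 ± 1.42% and 27.3 ± 1.15% of this sum, and Ptpn22 1.81 ± 0.914%. In B2B1 the shares were 16.003 ± 1.62%, 13.9 ± 1.01% and 16.8 ± 2.53%, and in B1 16.9 ± 0.557%, 14.7 ± 0.515% and 16.9 ± 1.82%. By mean TPM, Ptpn22 ranked 11 among the members in B2 and 1 in both peritoneal groups. The 10 classical MAP kinase phosphatases took 12.3 ± 0.747% of the sum in B2, 4.25 ± 0.109% in B2B1 and 4.09 ± 0.189% in B1; these shares were described and not tested. In bulk RNA, fewer cells of a type and less RNA per cell cannot be told apart.

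**Figure D1:**
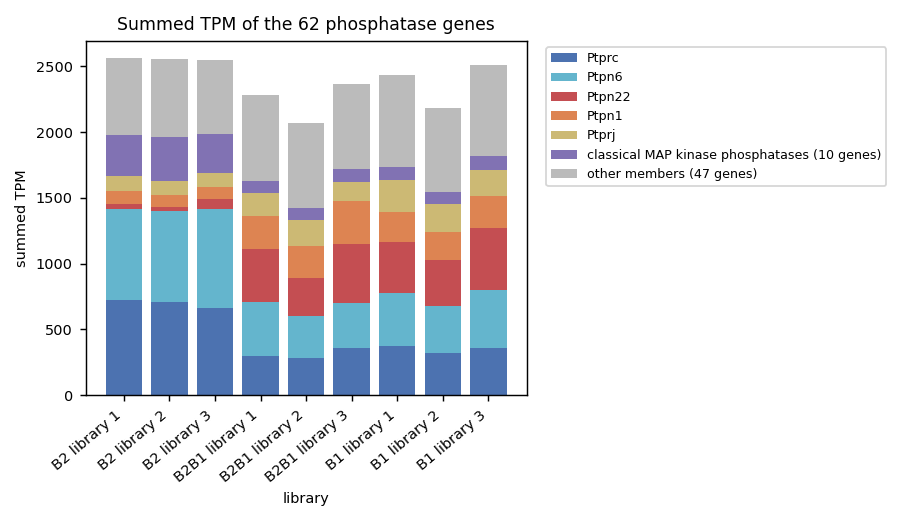
Summed TPM of the 62 phosphatase genes in each of the 9 libraries (bars from 0), divided into 5 single genes, the 10 classical MAP kinase phosphatases and the other 47 members. The Ptpn22 segment is thin in the 3 B2 libraries (27.3 to 72.1 TPM) and thick in the 6 peritoneal ones (289 to 478 TPM), and the B2 libraries have the largest Ptprc, Ptpn6 and MAP kinase phosphatase segments.

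Differences were tested with limma on log2(TPM + 1), a scale that understates the change of low genes, in one fit over all 9 libraries. A gene was called at a Benjamini-Hochberg adjusted p under 0.05 over all 11099 tested genes. Log2 differences are given ± their standard error from the limma fit. In B1 against B2, 13 members were called higher and 10 lower. These are 36.1% and 27.8% of the 36 tested members, against 18% and 33.9% of all tested genes. In B2B1 against B2, 12 were called higher and 14 lower (33.3% and 38.9%, against 21% and 42% of all genes). In B2B1 against B1, 3 were higher and 4 lower (8.33% and 11.1%, against 6.93% and 12.1%). Both comparisons with B2 use the same B2 libraries. Tissue and strain label differ there together with the cell type, so these cannot be told apart. The median log2 difference of the tested members was −0.054, −0.082 and −0.058 in the 3 comparisons, beside −0.135, −0.193 and −0.056 for all genes. Rescaling the TPM by median-of-ratios factors moved the medians of all genes to 0.011, 0.018 and 0.0066 and the calls of members to 14 higher and 9 lower, 15 and 9, and 4 and 2. Quantile normalization gave 13 and 10, 13 and 11, and 4 and 2. Of all called genes, 34.7%, 33.3% and 36.5% were higher without rescaling, 53.6%, 53.5% and 54.9% with median-of-ratios factors and 46.4%, 45.7% and 48.1% with quantile normalization. Of the 36 tested members, 9 were called in no comparison: Dusp12, Dusp22, Dusp23, Dusp28, Ptpn2, Ptpn18, Ptpn21, Ptpn23 and Ptpre. The share of all tested genes called in no comparison was not counted, so this number is a description only.

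**Figure D2:**
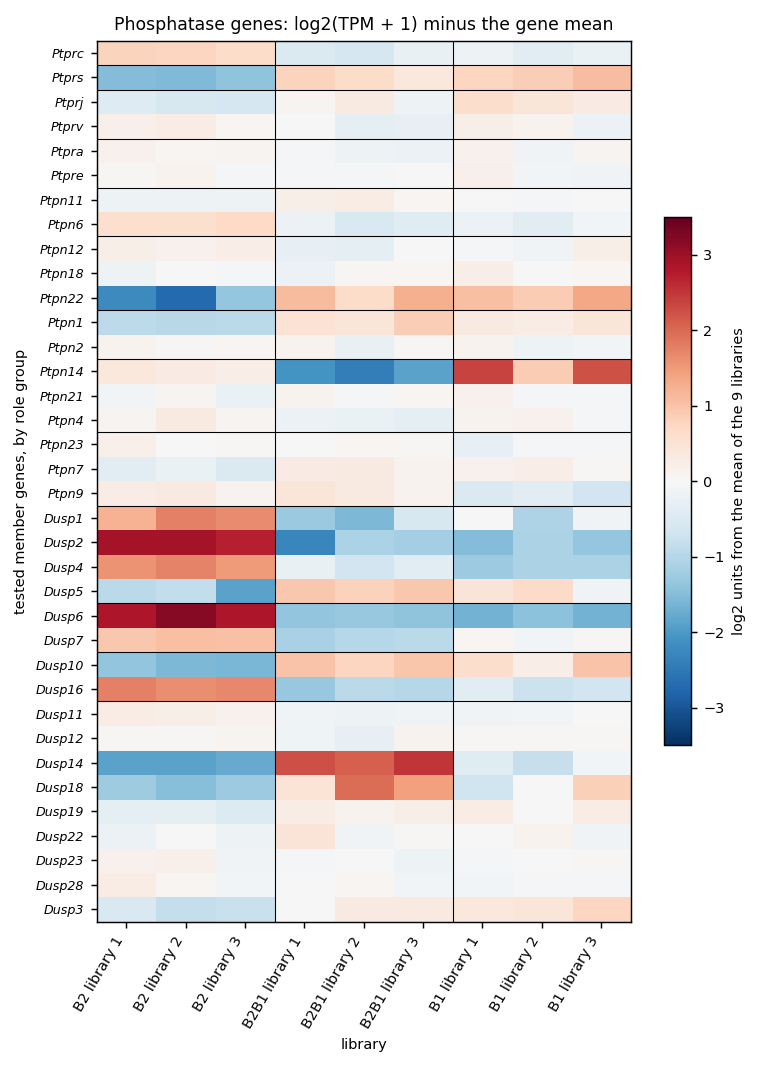
Heat map of the 36 tested phosphatase genes (rows, by role) in the 9 libraries (columns), coloured by log2(TPM + 1) minus the gene's mean over all libraries. Dusp2 and Dusp6 are red in the B2 columns and blue in the other 6, Ptpn22 has the opposite pattern, and Ptpn14 is blue in B2B1 and red in B1.

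All tested classical MAP kinase phosphatases differed between splenic and peritoneal cells. Of the 10 genes, 8 were tested, and in each comparison with B2 the same 6 were called lower (Dusp1, Dusp2, Dusp4, Dusp6, Dusp7 and Dusp16) and the same 2 higher (Dusp5 and Dusp10). These are 75% lower and 25% higher, beside 33.9% and 18% of all tested genes in B1 and 42% and 21% in B2B1. Dusp4 averaged under 1 TPM in both peritoneal groups and passed the filter only through B2. The median log2 difference of the 8 genes was −2.12 in B1 and −2.36 in B2B1. The summed level of all 10 was 314 ± 19.3 TPM in B2, 95.1 ± 6.07 TPM in B2B1 and 97.3 ± 11.3 TPM in B1. Every one of these 16 calls also held, with the same sign, under all alternatives tried in which the gene was tested.

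Dusp2 encodes a nuclear phosphatase of ERK and p38 kinases that is typical of activated blood cells. Its gene lies at chr2:127336159-127338376 on the plus strand of GRCm38. It was at 154, 156 and 136 TPM in B2, 3.30, 8.62 and 8.19 TPM in B2B1 and 6.28, 8.64 and 7.11 TPM in B1, so the B2 values lay far above the other 6, which overlapped each other. The mean was 20.3 times as high in B2 as in B1 and 22.2 times as high as in B2B1. On the log2 scale the differences were −4.17 ± 0.274 (adjusted p = 3.75e-06) for B1 and −4.37 ± 0.274 (adjusted p = 2.23e-06) for B2B1. Between B2B1 and B1 Dusp2 did not pass (−0.19 ± 0.274 (adjusted p = 0.659)), and the sign of that difference turned without B2B1 library 1, which held the lowest value (0.18). In B2 Dusp2 ranked 3 among all members, behind Ptpn6 and Ptprc, and it ranked 29 in B2B1 and 27 in B1.

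Dusp6, whose product is a cytoplasmic phosphatase selective for ERK, had the smallest adjusted p of the members. Its values were 40.9, 52.9 and 40.7 TPM in B2, 1.27, 1.34 and 1.22 TPM in B2B1 and 0.871, 1.19 and 0.852 TPM in B1. None of the B2 values was near those of the other groups, and the log2 differences were −4.53 ± 0.130 (adjusted p = 2.87e-08) for B1 and −4.32 ± 0.130 (adjusted p = 3.45e-08) for B2B1. The peritoneal groups both lay near 1 TPM and their difference of 0.21 ± 0.130 did not pass (adjusted p = 0.282). Dusp7, a second cytoplasmic ERK phosphatase, was at 46.4, 50.2 and 48.8 TPM in B2, 10.2, 11.3 and 11.7 TPM in B2B1 and 24.8, 21.9 and 24.4 TPM in B1. It had 3 separate levels, highest in B2 and lowest in B2B1, with differences of −1.004 ± 0.0781 (adjusted p = 1.03e-05) for B1 against B2, −2.04 ± 0.0781 (adjusted p = 1.4e-07) for B2B1 against B2 and −1.03 ± 0.0781 (adjusted p = 0.000138) for B2B1 against B1. Dusp9, the remaining gene of this group, stayed at 0.0729 to 0.386 TPM and was not tested.

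Among the nuclear MAP kinase phosphatases, Dusp1, an immediate early gene, was at 15.5, 22.9 and 21.3 TPM in B2, 1.90, 1.41 and 3.85 TPM in B2B1 and 6.00, 2.39 and 5.47 TPM in B1. All B2 values were above the peritoneal ones. Dusp1 is overlapped by the gene Ergic1 on the opposite strand. The differences were −1.95 ± 0.330 (adjusted p = 0.00109) for B1 and −2.68 ± 0.330 (adjusted p = 0.000118) for B2B1. B2B1 and B1 overlapped (−0.73 ± 0.330 (adjusted p = 0.156)), and without B1 library 2 Dusp1 was called lower in B2B1 (−1.06, adjusted p = 0.0348). Dusp4, a further nuclear ERK and JNK phosphatase, was at 6.60, 7.44 and 6.09 TPM in B2, 1.11, 0.596 and 0.983 TPM in B2B1 and 0.0552, 0.175 and 0.174 TPM in B1. It was lower than in B2 by both comparisons, −2.76 ± 0.152 (adjusted p = 1.24e-06) in B1 and −2.03 ± 0.152 (adjusted p = 6.01e-06) in B2B1. Dusp4 was higher in B2B1 than in B1 (0.73 ± 0.152 (adjusted p = 0.0116)), although most of these values were under 1 TPM. With a pseudocount of 0.1 instead of 1 the B1 against B2 difference of Dusp4 was −4.90 and that of B2B1 against B1 was 2.09. Dusp5, which encodes a nuclear phosphatase selective for ERK, went the other way, with 3.504, 3.68 and 1.33 TPM in B2, 15.6, 13.9 and 15.5 TPM in B2B1 and 10.7, 12.7 and 6.90 TPM in B1. It was higher than in B2 by 1.56 ± 0.282 (adjusted p = 0.00158) in B1 and 2.12 ± 0.282 (adjusted p = 0.000184) in B2B1, with no overlap.

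The JNK and p38 phosphatases split. Dusp10 was at 10.1, 8.73 and 8.51 TPM in B2, 57.1, 47.8 and 55.7 TPM in B2B1 and 43.0, 32.7 and 56.7 TPM in B1, and both peritoneal groups lay above B2, by 2.13 ± 0.174 (adjusted p = 1.45e-05) in B1 and 2.43 ± 0.174 (adjusted p = 4.73e-06) in B2B1. The gene 1700056E22Rik overlaps Dusp10 on the opposite strand. Dusp16 was at 34.8, 31.3 and 32.4 TPM in B2, 3.22, 4.42 and 4.25 TPM in B2B1 and 7.08, 5.25 and 5.56 TPM in B1, with the peritoneal groups below B2 by −2.29 ± 0.132 (adjusted p = 1.68e-06) and −2.78 ± 0.132 (adjusted p = 4.62e-07) in B1 and B2B1. Dusp10 was thus 4.84 times as high in B1 as in B2, while Dusp16 was 5.503 times as high in B2 as in B1. Summed, Dusp8, Dusp10 and Dusp16 reached 42.1 ± 2.66 TPM in B2, 57.6 ± 4.51 TPM in B2B1 and 50.2 ± 12.2 TPM in B1. The sum of the nuclear group was 178 ± 12.8, 25.0 ± 3.34 and 22.2 ± 2.25 TPM, and that of the cytoplasmic ERK group 93.4 ± 8.62, 12.5 ± 0.666 and 24.9 ± 1.41 TPM. Dusp8 stayed at 0.0231 to 0.205 TPM.

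**Figure D3:**
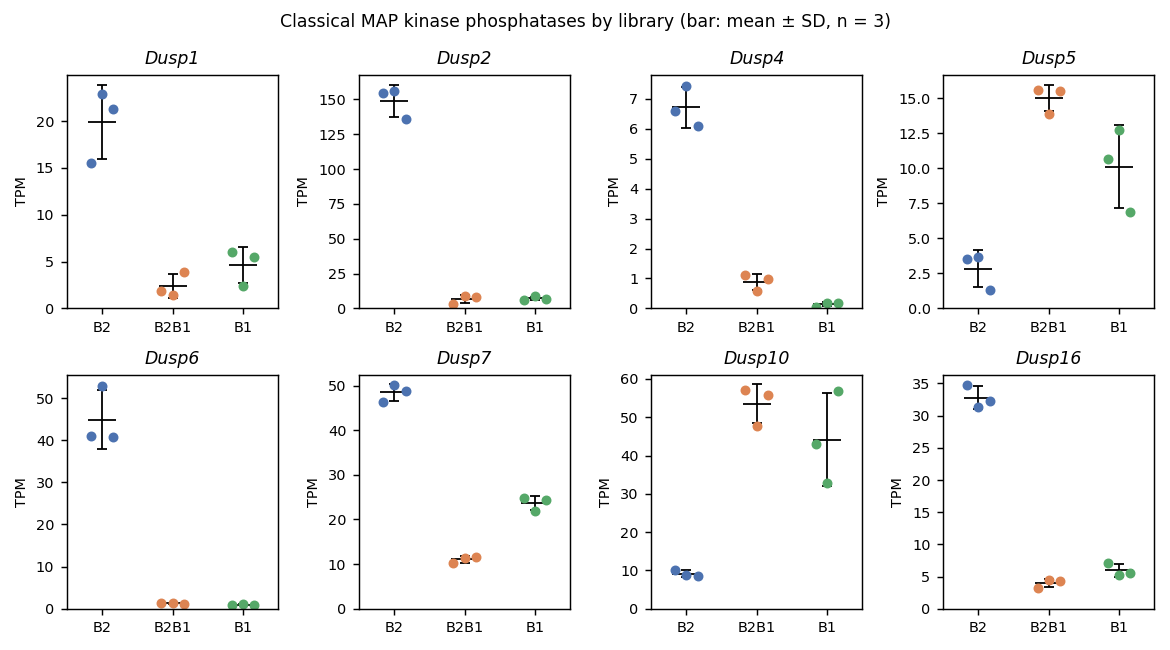
TPM of the 8 tested classical MAP kinase phosphatases in each library (points), with mean and SD of the 3 libraries of each group (bars); each panel has its own axis from 0. Dusp1, Dusp2, Dusp4, Dusp6, Dusp7 and Dusp16 are highest in B2, and Dusp5 and Dusp10 are lowest there.

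To show the sequence at which transcription of these genes starts, the 250 bases before the RefSeq start site (GRCm38.p6) were read for the members in the promoter table (50 of 62 symbols, 67 windows). Printed are the windows of Dusp2 and Dusp6, the members with the largest falls on the log2(TPM + 1) scale, and of Ptpn14, which is described further on. Capitals mark matches to the motifs searched on both strands: CRE (TGACGTCA), AP-1 (TGANTCA), the E-box CACGTG, EGR (GCGNGGGCG), the octamer (ATGCAAAT), TEAD (GGAATG) and the serum response element. A match describes letters only and shows no binding.
Dusp2, chr2:127335909-127336158, plus strand: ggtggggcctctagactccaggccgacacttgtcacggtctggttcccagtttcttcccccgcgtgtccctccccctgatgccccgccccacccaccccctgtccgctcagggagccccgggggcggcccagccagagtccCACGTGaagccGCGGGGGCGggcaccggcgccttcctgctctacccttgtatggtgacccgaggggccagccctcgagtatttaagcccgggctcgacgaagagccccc
Dusp6, chr10:99262981-99263230, plus strand: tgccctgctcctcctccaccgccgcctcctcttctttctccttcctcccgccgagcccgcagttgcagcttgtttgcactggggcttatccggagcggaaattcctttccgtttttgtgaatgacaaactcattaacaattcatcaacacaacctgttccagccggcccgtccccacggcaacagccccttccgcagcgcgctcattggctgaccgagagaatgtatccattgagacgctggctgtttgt
Ptpn14, chr1:189728018-189728267, plus strand: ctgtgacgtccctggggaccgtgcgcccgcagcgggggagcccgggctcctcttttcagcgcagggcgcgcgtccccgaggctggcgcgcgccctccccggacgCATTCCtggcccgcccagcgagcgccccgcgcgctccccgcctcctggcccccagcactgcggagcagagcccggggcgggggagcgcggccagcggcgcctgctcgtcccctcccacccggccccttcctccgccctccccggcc
The Dusp2 window held an E-box starting 109 bases and an EGR match starting 98 bases before the start site, motifs held by 6.02% and 4.7% of all 32851 windows. The Ptpn14 window held a TEAD match 146 bases before the start on the opposite strand (12.6% of all windows). No searched motif was in the windows of Dusp6, Dusp7 or Dusp10. Dusp1 held a CRE 143 and an E-box 126 bases before the start (1.55% and 6.02% of windows), Dusp16 an EGR match at 138 bases, and Dusp5 2 serum response elements at 82 and 72 bases (1.47%). Of the 67 member windows, 13 held an EGR match, 6 a TEAD match, 4 a CRE, 3 an AP-1 match, 3 an E-box, 3 a serum response element and 1 the octamer. Windows of untested members are among them. Over all windows the AP-1 motif was in 6.75% and the octamer in 1.6%, and no share was tested. GC content was 70.4% for Dusp2, 56.4% for Dusp6 and 80.8% for Ptpn14.

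Atypical dual-specificity phosphatases (14 genes, 9 tested) had 4 called higher and 1 lower in each comparison with B2. These are 44.4% and 11.1%, beside 18% and 33.9% of all tested genes in B1 and 21% and 42% in B2B1. Dusp14 and Dusp18, both among the higher calls, averaged 0.024 and 0.51 TPM in B2. They passed the filter of 1 TPM only through the peritoneal groups, so the share of higher calls depends partly on the filter. Dusp14, a small phosphatase known as a negative regulator in T cells, was at 0, 0 and 0.0732 TPM in B2, 16.6, 14.5 and 19.8 TPM in B2B1 and 1.73, 1.10 and 2.42 TPM in B1. It was at or near 0 in B2, low in B1 and highest in B2B1, with no overlap between groups. Its differences were 1.40 ± 0.189 (adjusted p = 0.000302) for B1 against B2, 4.12 ± 0.189 (adjusted p = 3.74e-07) for B2B1 against B2 and 2.73 ± 0.189 (adjusted p = 8.46e-05) for B2B1 against B1. With a pseudocount of 0.1 the first 2 differences of Dusp14 were 3.88 and 7.14. Dusp14 ranked 18 among the members in B2B1, and 43 in B2. Dusp18 was at 0.611, 0.360 and 0.567 TPM in B2, 4.26, 13.6 and 9.23 TPM in B2B1 and 1.35, 2.77 and 5.75 TPM in B1, so the peritoneal libraries varied widely but all lay above B2. It was called higher in B2B1 (2.61 ± 0.427 (adjusted p = 0.00064)) and in B1 (1.37 ± 0.427 (adjusted p = 0.0239)). The B1 call was lost with quantile normalization, without any 1 B2 library or without B1 library 3 (adjusted p = 0.0535 to 0.0809), and with a pseudocount of 0.1 the difference was 2.27. B2B1 against B1 did not pass for Dusp18 (1.24 ± 0.427 (adjusted p = 0.075)), but was called without B2B1 library 1 (adjusted p = 0.0301), without B1 library 3 (0.0361) and with B1 library 2 and B2B1 library 1 both left out (0.0463).

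Dusp3, also called VHR and able to act on ERK and JNK, was at 16.3, 13.1 and 13.8 TPM in B2, 23.8, 30.5 and 30.3 TPM in B2B1 and 31.7, 32.8 and 41.6 TPM in B1. All peritoneal values exceeded the B2 values, by 1.23 ± 0.137 (adjusted p = 8.94e-05) in B1 and 0.92 ± 0.137 (adjusted p = 0.000364) in B2B1. Dusp19, which takes part in JNK signalling, was at 8.80, 8.60 and 7.78 TPM in B2, 13.7, 12.4 and 13.2 TPM in B2B1 and 13.5, 11.4 and 13.6 TPM in B1. It was higher than in B2 by 0.56 ± 0.0947 (adjusted p = 0.00112) in B1 and 0.58 ± 0.0947 (adjusted p = 0.000601) in B2B1, and its gene is overlapped by Nup35 on the same strand. Dusp11, an RNA phosphatase, was at 86.9, 83.3 and 80.8 TPM in B2, 66.3, 64.2 and 66.7 TPM in B2B1 and 66.5, 66.8 and 70.8 TPM in B1, lower in B1 by −0.29 ± 0.0545 (adjusted p = 0.00184) and in B2B1 by −0.34 ± 0.0545 (adjusted p = 0.000542). Both calls of Dusp11 were lost with median-of-ratios scaling (differences −0.14 and −0.12). The other 4 tested genes were called in no comparison and had group means of 23.0 to 25.5 TPM (Dusp12), 26.0 to 31.2 TPM (Dusp22), 7.36 to 8.17 TPM (Dusp23) and 9.20 to 10.4 TPM (Dusp28). Dusp12 was called lower in B2B1 than in B2 without B2B1 library 3 (−0.26) and Dusp22 higher with either rescaling (0.45 with median-of-ratios factors).

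The non-receptor tyrosine phosphatases (17 genes, 13 tested) had 5 called higher and 2 lower in B1 against B2, 4 and 4 in B2B1 against B2, and 1 and 2 in B2B1 against B1. The shares were 38.5% and 15.4%, 30.8% and 30.8%, and 7.69% and 15.4%. Those of all tested genes were 18% and 33.9%, 21% and 42%, and 6.93% and 12.1%. Ptpn14, a FERM domain phosphatase best known for holding the transcriptional coactivator YAP outside the nucleus, had the largest difference between B2B1 and B1 of all members. Its gene lies at chr1:189728268-189876695 on the plus strand of GRCm38. It was at 9.81, 9.34 and 8.96 TPM in B2, 0.963, 0.584 and 1.31 TPM in B2B1 and 42.4, 14.6 and 38.5 TPM in B1. The 3 groups did not overlap: B2B1 was lowest, B2 intermediate and close among its libraries, and B1 highest, with B1 library 2 well below the other B1 libraries. The mean was 3.40 times as high in B1 as in B2, and the log2 differences were 1.53 ± 0.341 (adjusted p = 0.00494) for B1 against B2, −2.43 ± 0.341 (adjusted p = 0.000263) for B2B1 against B2 and −3.95 ± 0.341 (adjusted p = 0.000197) for B2B1 against B1. No fold is given against B2B1, where 2 of 3 values were under 1 TPM. Without B1 library 2 the B1 against B2 difference was 1.997 (adjusted p = 2.73e-05), and leaving out any other single library gave 1.26 to 1.56 (adjusted p = 0.00712 to 0.0217). Ptpn14 was the only member called higher in B1 and lower in B2B1 than in B2.

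The other FERM phosphatases did not share this pattern of calls. Ptpn4 was at 13.2, 15.4 and 13.1 TPM in B2, 10.5, 10.3 and 9.68 TPM in B2B1 and 13.5, 13.7 and 11.9 TPM in B1. It was lower in B2B1 than in B2 (−0.41 ± 0.0925 (adjusted p = 0.00382)) and than in B1 (−0.33 ± 0.0925 (adjusted p = 0.038)), and B1 overlapped B2. Median-of-ratios scaling ended the first call (−0.20), and the second was lost with both rescalings, with a looser filter or none, with the 2 groups fitted alone and without any 1 library other than B2 library 2 and B1 library 3 (adjusted p = 0.0562 to 0.104). Ptpn21 was at 4.21, 4.90 and 3.70 TPM in B2, 4.997, 4.28 and 4.84 TPM in B2B1 and 5.14, 4.37 and 4.39 TPM in B1, with all groups overlapping, and was called only with median-of-ratios scaling, in B2B1 against B2 (0.30). Ptpn13 and Ptpn3 were too low to be tested: both were listed at 0 in B2 and reached at most 0.873 and 0.486 TPM in B2B1. Without the filter on low values, both were called higher in B2B1 than in B2 (0.72 and 0.35 on the log2 scale), as was Ptpn5 (0.27). Ptpn5 was also called in B1 against B2 then, and Ptpn3 in B2B1 against B1. All of these values are under 1 TPM.

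Ptpn22, which acts with the kinase Csk against Src and Syk family kinases in lymphocytes, was the phosphatase with the highest mean in B2B1 and B1. Its gene lies at chr3:103859795-103912247 on the plus strand. It was at 39.1, 27.3 and 72.1 TPM in B2, 404, 289 and 444 TPM in B2B1 and 387, 345 and 478 TPM in B1, so each peritoneal value was above every B2 value. The mean in B1 was 8.74 times and in B2B1 8.21 times that in B2. The differences were 3.20 ± 0.313 (adjusted p = 4.17e-05) for B1 and 3.10 ± 0.313 (adjusted p = 3.51e-05) for B2B1, while B2B1 and B1 overlapped (−0.10 ± 0.313 (adjusted p = 0.854)). The other PEST phosphatases had smaller differences. Ptpn12, a regulator of the cytoskeleton and adhesion, was at 14.6, 13.9 and 14.8 TPM in B2, 10.03, 9.77 and 12.7 TPM in B2B1 and 12.2, 11.4 and 14.6 TPM in B1. It was lower in B2B1 than in B2 (−0.39 ± 0.121 (adjusted p = 0.0188)), a call lost with both rescalings and without B2 library 1 or 3 or B2B1 library 1 or 2 (adjusted p = 0.0524 to 0.0652). Ptpn18 was at 103, 117 and 110.4 TPM in B2, 100.2, 123 and 122 TPM in B2B1 and 137, 118 and 123 TPM in B1 and passed in no comparison; median-of-ratios scaling made it a higher call in both comparisons with B2 (0.35 and 0.28), and in B1 also with quantile normalization and without both B1 library 2 and B2B1 library 1 (0.24, adjusted p = 0.0264).

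SHP-1 and SHP-2 carry paired SH2 domains that bind phosphorylated receptors. Ptpn6, the gene of SHP-1, had the highest mean of the members in B2. It was at 694, 691 and 753 TPM in B2, 405, 323 and 347 TPM in B2B1 and 407, 357 and 438 TPM in B1, and all B2 values lay above the rest. Its level was 1.78 times as high in B2 as in B1 and 1.99 times as high as in B2B1, with differences of −0.83 ± 0.1001 (adjusted p = 0.000146) and −0.996 ± 0.1001 (adjusted p = 3.45e-05). B2B1 against B1 did not pass (−0.16 ± 0.1001 (adjusted p = 0.285)), but was called with B1 library 2 and B2B1 library 1 both left out (−0.34, adjusted p = 0.0214). Ptpn11, the gene of SHP-2, which supports Ras and ERK signalling, was at 43.3, 42.5 and 43.1 TPM in B2, 56.3, 58.6 and 51.5 TPM in B2B1 and 48.9, 46.9 and 49.2 TPM in B1. It was higher than in B2 by 0.36 ± 0.0620 (adjusted p = 0.00089) in B2B1 and by 0.17 ± 0.0620 (adjusted p = 0.0488) in B1. The B1 call was lost without trended eBayes, without any 1 B2 library, B2B1 library 1, or B1 library 1 or 3, and without both B1 library 2 and B2B1 library 1 (adjusted p = 0.0514 to 0.118). With median-of-ratios scaling the differences of Ptpn11 were 0.58 in B2B1 and 0.32 in B1. Against B1, Ptpn11 was called higher in B2B1 without B2B1 library 3 (adjusted p = 0.0381) and with both rescalings.

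Ptpn1, the gene of PTP1B, an enzyme anchored to the endoplasmic reticulum that acts on JAK kinases and receptor kinases, was at 96.0, 92.6 and 94.3 TPM in B2, 255, 245 and 330.2 TPM in B2B1 and 227, 217 and 242 TPM in B1. The B2 values lay close together and below the others, and the mean was 2.42 times as high in B1 and 2.93 times as high in B2B1. Differences were 1.27 ± 0.104 (adjusted p = 1.53e-05) for B1 and 1.53 ± 0.104 (adjusted p = 3.56e-06) for B2B1. Its near relative Ptpn2, the gene of TC-PTP, was at 50.8, 48.1 and 49.6 TPM in B2, 51.0, 39.0 and 48.7 TPM in B2B1 and 50.9, 41.7 and 44.2 TPM in B1, with overlapping groups. No comparison of Ptpn2 passed (adjusted p = 0.38, 0.419 and 0.94), and with both rescalings its differences from B2 turned from negative to positive. Ptpn7, a blood cell phosphatase that binds ERK and p38, was at 37.5, 42.9 and 35.0 TPM in B2, 61.3, 62.4 and 55.2 TPM in B2B1 and 55.6, 58.5 and 51.5 TPM in B1. It was higher in B1 by 0.51 ± 0.0895 (adjusted p = 0.00131) and in B2B1 by 0.62 ± 0.0895 (adjusted p = 0.000301). Ptpn9, known for its place on secretory vesicles, was at 11.2, 11.7 and 10.2 TPM in B2, 12.7, 11.6 and 10.1 TPM in B2B1 and 6.24, 6.76 and 5.43 TPM in B1. Here B1 was the group that stood apart, lower than B2 by −0.75 ± 0.113 (adjusted p = 0.000543), and B2B1 lay above B1 by 0.80 ± 0.113 (adjusted p = 0.00198) while overlapping B2. Ptpn9 is overlapped by the antisense gene Gm10658, and use of strand in the authors' quantification is not stated. Ptpn23, an endosomal sorting protein, was at 35.8, 31.9 and 32.9 TPM in B2, 31.9, 33.3 and 32.5 TPM in B2B1 and 25.9, 30.8 and 30.9 TPM in B1 and passed in no comparison.

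**Figure D4:**
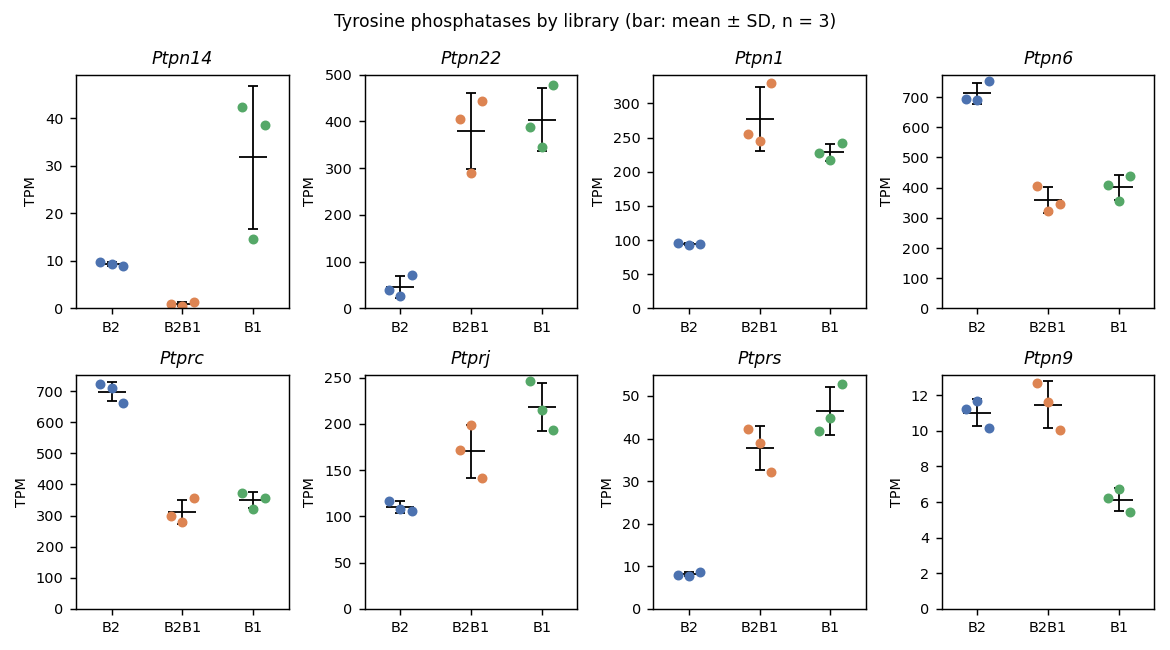
TPM of 8 tyrosine phosphatase genes in each library (points), with mean and SD of the 3 libraries of each group (bars); each panel has its own axis from 0. Ptpn22, Ptpn1, Ptprj and Ptprs are higher in both peritoneal groups than in B2, Ptpn6 and Ptprc are lower, Ptpn14 is lowest in B2B1 and highest in B1, and Ptpn9 is lowest in B1.

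Receptor phosphatases were few: 6 of 21 genes were tested. In B1 against B2, 2 were called higher and 1 lower (33.3% and 16.7%, beside 18% and 33.9% of all tested genes). In B2B1 against B2, 2 were higher and 3 lower (33.3% and 50%, beside 21% and 42%). Ptprc, the gene of CD45, lies at chr1:138062861-138175708 on the minus strand and was at 722, 710.1 and 663 TPM in B2, 299, 279 and 355 TPM in B2B1 and 371, 322 and 357 TPM in B1. The B2 values all lay above the others, with a ratio of means of 1.996 to B1 and 2.25 to B2B1. It was lower than in B2 by −0.996 ± 0.0945 (adjusted p = 3.47e-05) in B1 and −1.17 ± 0.0945 (adjusted p = 9.19e-06) in B2B1. Ptprj, the gene of CD148, which shares the task of activating Src family kinases in B cells and macrophages, was at 117, 108 and 105 TPM in B2, 172, 198 and 141 TPM in B2B1 and 246, 215 and 194 TPM in B1. The peritoneal values all lay above B2, by 0.97 ± 0.127 (adjusted p = 0.000237) in B1 and 0.61 ± 0.127 (adjusted p = 0.0025) in B2B1. The ratio of mean Ptprc to B2 was thus 0.501 in B1, where that of Ptprj was 1.98. Ptprs, a receptor for sulphated proteoglycans, was at 7.88, 7.71 and 8.63 TPM in B2, 42.3, 38.9 and 32.1 TPM in B2B1 and 41.9, 44.8 and 52.7 TPM in B1, and the peritoneal groups were higher by 2.38 ± 0.119 (adjusted p = 6.81e-07) and 2.09 ± 0.119 (adjusted p = 1.23e-06) in B1 and B2B1.

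The remaining receptor genes differed little. Ptpra, an activator of Src, was at 52.0, 49.2 and 49.8 TPM in B2, 44.8, 41.0 and 40.6 TPM in B2B1 and 51.4, 43.0 and 49.7 TPM in B1, lower in B2B1 than in B2 by −0.25 ± 0.0785 (adjusted p = 0.0198). This call was lost with both rescalings and without B2 library 1 or B2B1 library 2 or 3 (adjusted p = 0.0584 to 0.0686). GENCODE M21 lists Ptprv as a processed transcript and not as a protein-coding gene. Ptprv was at 4.01, 4.35 and 3.67 TPM in B2, 3.37, 2.47 and 2.64 TPM in B2B1 and 4.13, 3.82 and 2.85 TPM in B1, lower in B2B1 than in B2 by −0.39 ± 0.148 (adjusted p = 0.0426). That call was lost with both rescalings, without the filter on low values, without any 1 B2 library and without B2B1 library 2 or 3 (adjusted p = 0.0579 to 0.127). Ptpre was at 13.8, 14.7 and 13.1 TPM in B2, 13.2, 12.9 and 13.4 TPM in B2B1 and 15.4, 12.7 and 12.3 TPM in B1, all groups overlapping, and passed in no comparison. In B2B1 against B1, limma called 0 of the 6 receptor genes, beside 6.93% of all tested genes higher and 12.1% lower. At an unadjusted p under 0.05, 3 were lower. No difference from the shares over all genes was tested. Ptprj was called lower there without B2B1 library 2 (−0.48, adjusted p = 0.0366) and Ptpra without B1 library 2 (−0.26, adjusted p = 0.0285) and without both that library and B2B1 library 1 (−0.30). Both Ptpra and Ptpre are overlapped by an antisense gene of the table. The macrophage marker sums given above were likewise higher in the peritoneal groups than in B2, and their part in the Ptprj and Ptprs differences was not tested.

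B2B1 and B1 share tissue and strain label, and 7 members were called between them. Sex was not balanced: Ddx3y was at 56.9 and 61.7 TPM in B2B1 libraries 1 and 2 and at most 0.285 TPM in B1. The part of sex in these calls was not tested. Dusp14 (2.73 ± 0.189), Ptpn9 (0.80 ± 0.113) and Dusp4 (0.73 ± 0.152) were higher in B2B1, and Ptpn14 (−3.95 ± 0.341), Dusp7 (−1.03 ± 0.0781), Dusp16 (−0.49 ± 0.132) and Ptpn4 (−0.33 ± 0.0925) were lower. For Dusp16 the adjusted p was 0.0335. The call of Dusp16 was lost with both rescalings, with no filter on low values, with the 2 groups fitted alone, and without any 1 B2 library, B2B1 library 1 or 3, or B1 library 1 or 3 (adjusted p = 0.0536 to 0.102). Ptpn14, Dusp7, Dusp14, Ptpn9 and Dusp4 were called under all alternatives tried, wherever they were tested. Dusp4 was untested with a stricter filter of 5 TPM and with the 2 groups fitted alone. That fit of 2 groups called 4 members. The largest member differences that did not pass were those of Dusp18 (1.24), Dusp1 (−0.73) and Dusp5 (0.56 ± 0.282 (adjusted p = 0.196)).

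**Figure D5:**
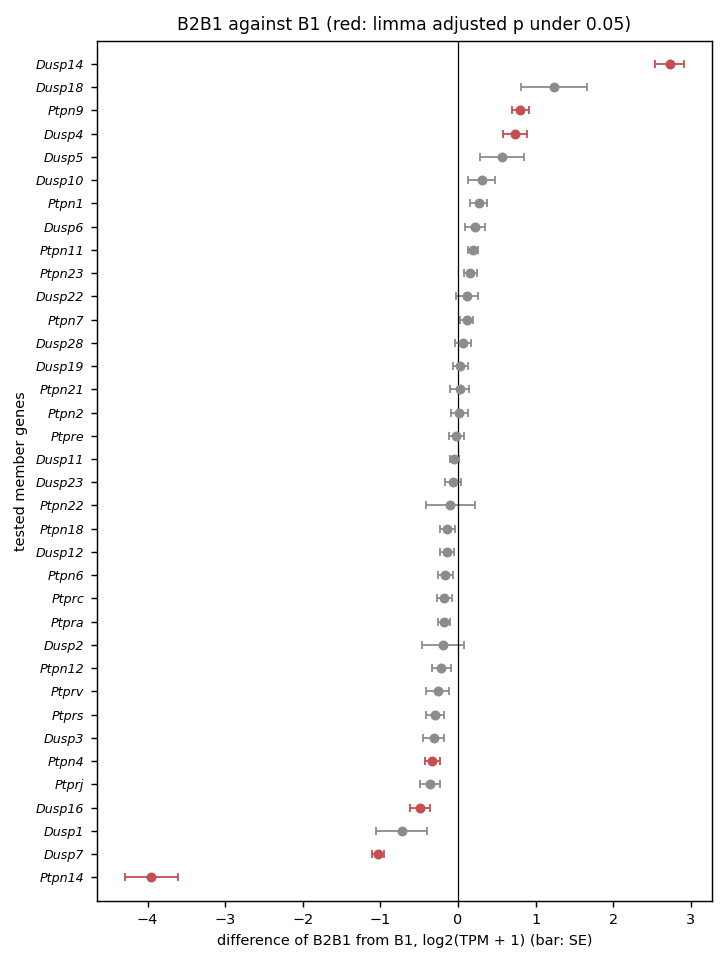
Difference of B2B1 from B1 on the log2(TPM + 1) scale for the 36 tested phosphatase genes (points, with SE bars), in order of size; red marks a limma adjusted p under 0.05. Dusp14 lies farthest to the right (2.73) and Ptpn14 farthest to the left (−3.95).

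Other genes of these pathways are given for comparison, with means in the order B2, B2B1 and B1. The counts stand beside 18% of all tested genes called higher and 33.9% lower in B1 against B2, 21% and 42% in B2B1 against B2, and 6.93% and 12.1% in B2B1 against B1. Of 24 tested MAP kinases and upstream kinases, 6 were called higher and 9 lower in B1 against B2, 3 and 10 in B2B1 against B2, and 2 and 4 in B2B1 against B1, which is 25% and 37.5%, 12.5% and 41.7%, and 8.33% and 16.7% of those tested; no difference from the shares over all genes was tested. The p38 kinase gene Mapk11 was at 122 ± 12.5, 35.1 ± 0.825 and 47.1 ± 2.98 TPM, and the MEK1 gene Map2k1 at 199.9 ± 4.05, 98.9 ± 10.8 and 90.6 ± 4.61 TPM. Of 16 tested genes that MAP kinase signalling induces, 3 were higher and 5 lower in B1 against B2, 9 and 2 in B2B1 against B2, and 3 and 1 in B2B1 against B1, beside the 2 higher and 6 lower of the MAP kinase phosphatases in both comparisons with B2. Egr3, an early growth response factor, was at 9.15 ± 0.454, 30.9 ± 4.32 and 8.85 ± 2.44 TPM, Fosl2, an AP-1 subunit, at 0.323 ± 0.358, 2.99 ± 0.277 and 11.8 ± 1.18 TPM, and Mcl1, a survival factor, at 469.5 ± 25.9, 1080.2 ± 59.7 and 1097 ± 41.1 TPM. Among the 5 called lower in B1 than in B2 were Fos (28.3 ± 7.80, 16.2 ± 9.04 and 8.25 ± 3.34 TPM) and Egr1 (20.6 ± 4.23, 19.9 ± 8.97 and 9.44 ± 2.80 TPM). Nr4a1, at 18.7 ± 2.46, 31.7 ± 3.08 and 12.7 ± 3.13 TPM, was called lower in B1 and higher in B2B1 than in B2. Other phosphatases (26 tested) had 9 higher and 9 lower, 8 and 9, and 4 and 7 in the same order of comparisons. Ubash3b, a histidine phosphatase that acts on Syk family kinases, was at 6.02 ± 0.913, 52.9 ± 7.73 and 25.2 ± 6.11 TPM.

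Tyrosine kinases and adaptors of the BCR (16 tested) had 5 higher and 7 lower in B1 against B2, 5 and 8 in B2B1 against B2, and 2 and 3 in B2B1 against B1. Pag1, the adaptor that brings Csk to the membrane, was at 73.5 ± 5.51, 1.76 ± 0.107 and 5.27 ± 0.482 TPM, a fall against B2 in both groups (−3.57 ± 0.0940 (adjusted p = 1.7e-08) and −4.75 ± 0.0940 (adjusted p = 5.01e-09)), while Ptpn22, a partner of Csk, was higher in both. Inhibitory and related surface receptors, not all of them docking sites of SHP-1 (15 tested), had 4 higher and 8 lower, 4 and 9, and 3 and 5. Cd72 was at 417 ± 10.9, 79.2 ± 14.5 and 27.9 ± 9.78 TPM, lower in both peritoneal groups as Ptpn6 was. Fcrl1, not taken here as a docking site of SHP-1, was also lower in both, at 492 ± 4.94, 20.6 ± 7.37 and 39.4 ± 11.3 TPM. Sirpa was higher at 3.31 ± 1.39, 52.3 ± 10.4 and 39.8 ± 5.25 TPM. Hippo and YAP genes (10 of 24 tested, Yap1 not among them) had 3 higher and 4 lower in each comparison with B2. In B2B1 against B1 limma called 0 higher (0 also at an unadjusted p under 0.05) and 4 lower. The Hippo kinase gene Lats2 was at 58.9 ± 4.24, 12.6 ± 2.06 and 21.3 ± 5.36 TPM and thus, unlike Ptpn14, highest in B2.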

How the data were processed

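RNA-seq of polyadenylated RNA was made from 9 libraries in 3 groups, assigned by their labels. Extraction used the RNeasy Micro kit and library construction the TruSeq RNA kit, per the labels' protocols. The submitters' processing notes name CASAVA 1.8.2, kallisto and mm10; the version of kallisto and its transcript set are not given in the sources used. The authors deposited TPM for 22178 gene symbols, summing to 894515 to 943043 TPM per library, with no counts, so no count model or counting interval could be used. A second deposited table, of a gene signature, was not used. No 2 libraries were identical (0 of 36 pairs).

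Genes with a mean of at least 1 TPM (11099) were tested on log2(TPM + 1) with limma 3.58.1 in R 4.3.3 (lmFit, contrasts.fit, eBayes with trend), two-sided, in one fit over all 9 libraries. P-values were adjusted by the Benjamini-Hochberg method over all 11099 genes and called at 0.05. The smallest p of an exact permutation test of 3 against 3 libraries is 0.1. The fit was also run on simulated data with few changed genes and independent normal noise. In the real data many genes were called and B1 library 2 stood apart, so that run does not vouch for the calls. Alternatives were other pseudocounts, filters and scalings, eBayes without trend, a replicate block, only the 2 groups compared, and leaving out each library. Coordinates are from GENCODE M21 (GRCm38, the same assembly as mm10), matched by symbol for 62 of 62 members, and promoter windows are from RefSeq (GRCm38.p6). Python 3.11.15 and matplotlib 3.10.9 were used for tables and figures.

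The members and lists were chosen with earlier results of these data known. Named members were Ptpn14, Dusp2, Ptprc, Ptpn6, Ptpn22, Ptpn2, Ptpn1, Ptprj, Dusp1, Dusp4, Dusp5, Dusp6 and Dusp10, up to 5 members of each role group by smallest adjusted p, and up to 3 of each other list. Chosen after their values were seen were the remaining members of small counts, Fos, Egr1, Nr4a1, Xist, Ddx3y and the macrophage markers named, the motifs searched, the 3 promoters printed, and leaving out B1 library 2 and B2B1 library 1 together. 1 gene that the rule names among the other phosphatases is not reported here.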

Additional observations from a re-analysis of the deposited data

How the results depend on the processing

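Alternatives changed few counts. The members called stayed at 21 to 24 in B1 against B2 and at 23 to 28 in B2B1 against B2. Of the calls, 20 of 23 and 21 of 26 held in every alternative in which the gene was tested, as did 5 of 7 in B2B1 against B1. Among these held calls, some genes were not tested in all alternatives. They were Dusp4 in each comparison, Dusp14 in B1 against B2 and Dusp18 in B2B1 against B2. There were 0 changes of sign among called members. In B2B1 against B1, fitting only the 2 groups compared gave 4 members (7 in the main analysis) and 1150 of all genes (2108), and leaving out 1 library gave 5 to 8 members and 1336 to 2439 genes, the fewest without B1 library 1. Leaving out B1 library 2 and B2B1 library 1 together, chosen after seeing the data, gave 23, 26 and 9 members.

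The replicate block gave 22, 26 and 7 members, and 5533, 6855 and 1737 genes. It ended the calls of Ptpn11 in B1 against B2 (adjusted p = 0.0839) and Dusp16 in B2B1 against B1 (0.0678), added Ptprj there (0.0483) and changed no other member's call. Deviations of same-numbered libraries correlated at −0.058 to 0.123, with 1 of 9 pairs over 0.1, so the numbers were not taken to pair libraries.

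Differences that passed no threshold changed sign in 52 values of single members. With median-of-ratios scaling and quantile normalization, B1 against B2 became 0.14 and 0.12 for Dusp12, 0.034 and 0.0081 for Ptpn2, 0.063 and 0.0014 for Ptpn4, 0.085 and 0.061 for Ptpra and 0.10 and 0.036 for Ptpre. B2B1 against B2 became 0.064 and 0.030 for Dusp12, 0.12 and 0.027 for Dusp28, 0.12 and 0.076 for Ptpn2, 0.18 and 0.15 for Ptpn23 and 0.14 and 0.066 for Ptpre. B2B1 against B1 became 0.041 and 0.030 for Ptpre, and 0.021 with the former for Dusp11. For Dusp23 the former gave 0.077 in B1 and 0.072 in B2B1 against B2. Leaving out single libraries gave ranges of −0.026 to 0.0089 (Dusp12), −0.12 to 0.0067 (Ptpra) and −0.14 to 0.011 (Ptpre) in B1 against B2, and of −0.18 to 0.0098 (Ptpn2), −0.074 to 0.0062 (Ptpn23) and −0.022 to 0.13 (Ptpn9) in B2B1 against B2. In B2B1 against B1 they were −0.050 to 0.071 (Dusp19), −0.40 to 0.18 (Dusp2), −0.053 to 0.23 (Dusp22), −0.059 to 0.13 (Ptpn2), −0.018 to 0.083 (Ptpn21), −0.22 to 0.084 (Ptpn22) and −0.081 to 0.069 (Ptpre). With both named libraries left out, values were 0.0067 for Ptpra in B1 against B2, −0.022 for Ptpn9 in B2B1 against B2, and −0.079 (Dusp19), 0.29 (Dusp2), −0.12 (Ptpn2) and −0.051 (Ptpn21) in B2B1 against B1. The cause of these changes was not tested. TPM keep no depth, so the precision of low values is unknown.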
